A study of Sus scrofa with 4 samples.

Results

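The interleukin 4/13 axis was described here through 6 genes chosen by name: the receptor chains IL13RA2, IL13RA1 and IL4R, the cytokines IL4 and IL13, and the transcription factor STAT6. All 6 were found among the 29263 genes counted, each under its own symbol. The set was proposed because IL13RA2 stood out in the comparison of the sorted fractions, so the difference between fractions is described for these 6 genes and no test result is given for them. The 4 that passed the filter on low counts were part of the fit over all genes, from which their log2 differences come.

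The libraries came from lung cells of pigs with the LGR5-H2B-GFP knock-in genotype, which all 4 libraries share. Histone H2B fused to green fluorescent protein reports LGR5, a receptor for R-spondins, and because the fused histone is stable, fluorescence can outlast transcription of the gene. Live cells were sorted into a bright fraction, GFP-HI (2 libraries, biological replicates 1 and 2), and a fraction without fluorescence, GFP-NEG (2 libraries, biological replicates 1 and 2). The protocol text also names antibodies against EPCAM and NGFR without saying to which samples they apply, it covers adult and fetal lung together, and no sample label gives the stage, age, sex or treatment of the animals. The name of the deposited comparison table contains the words adult pig, directly after the code D111. The meaning of that code is not given in the sources used here.

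Interleukins 4 and 13 are related cytokines of type 2 immunity, released mainly by T helper 2 cells, group 2 innate lymphoid cells, mast cells, basophils and eosinophils. IL4R pairs with the common gamma chain, encoded by IL2RG, to form a receptor for interleukin 4 on blood cells, and with IL13RA1 to form a receptor for both cytokines on many other cell types, fibroblasts and epithelium among them. Janus kinases bound to these chains phosphorylate STAT6, which then enters the nucleus. IL13RA2 binds interleukin 13 tightly, has a short cytoplasmic tail and is best known as a decoy that takes the cytokine away from the signalling receptor.

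Library totals were 24200550 and 24689986 counts in GFP-HI against 6292253 and 7045652 in GFP-NEG, so depth and fraction cannot be told apart by design. One count was worth 0.0453 to 0.0496 CPM (counts divided by the library total, corrected with the TMM factor of the edgeR package) in GFP-HI and 0.110 to 0.155 CPM in GFP-NEG. LGR5, the gene under the reporter, had 3218 and 3073 counts in GFP-HI against 10 and 7 in GFP-NEG, the order that the labels give. Marker lists differed between the fractions (edgeR, adjusted p under 0.05, at which 8.35% of all tested genes were higher in GFP-HI and 27.6% lower), and each list with 0 genes in a direction also had 0 in it at an unadjusted p under 0.05 and under DESeq2. Fibroblast markers (7 of 7 genes tested, 4 higher in GFP-HI, 0 lower) summed to 80600 and 70500 CPM in GFP-HI replicates 1 and 2 and to 24800 and 8980 CPM in GFP-NEG replicates 1 and 2, the order of all pairs of values here. T cell markers (0 higher and 6 lower of 7 tested) summed to 60.6 and 98.5 CPM against 363 and 779 CPM, and PTPRC, the pan-leukocyte gene, was at 45.9 and 121 CPM against 687 and 1210 CPM. The other lists, as summed CPM, were: B cell (3 of 4 lower) 81.6 and 172 against 186 and 448, neutrophil (2 of 3 lower) 164 and 155 against 1670 and 743, macrophage (3 of 7 lower) 326 and 226 against 1170 and 539, and endothelial (5 of 5 lower) 129 and 147 against 855 and 407. Epithelial markers (1 of 7 lower) summed to 228 and 205 CPM against 520 and 132 CPM, and smooth muscle and pericyte markers (1 higher and 3 lower of 5) to 1300 and 1950 CPM against 2130 and 320 CPM. Mast cell and basophil markers summed to 270 and 204 CPM against 237 and 243 CPM, with 4 of 5 lower and GATA2 higher. GATA2, a transcription factor that is not restricted to mast cells, made up most of the GFP-HI sums. It was at 251 and 168 CPM in GFP-HI against 34.8 and 11.9 CPM in GFP-NEG. FCER1A, 1 of the 4 lower genes, was at 3.08 and 21.2 CPM against 81.5 and 103 CPM. The sums therefore do not show the order of the 4 lower genes. Eosinophil markers could not be tested: EPX had 1 and 0 counts in GFP-HI against 4 and 32 in GFP-NEG, and IL5RA was at 0 in both GFP-HI libraries.

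IL13RA2, the decoy receptor, was the member with the widest gap between fractions. It had 468 counts (21.2 CPM, exact binomial 95% interval 19.3 to 23.2) in GFP-HI replicate 1 and 1597 counts (79.2 CPM, 75.3 to 83.1) in GFP-HI replicate 2. In GFP-NEG it had 6 counts in replicate 1 (0.932 CPM, 0.342 to 2.03) and 0 counts in replicate 2, where a count of 0 allows up to 0.329 CPM (3 counts). Both GFP-HI libraries were therefore far above both GFP-NEG libraries, and the fractions did not overlap. Intervals and floors of this kind cover counting error only. Within replicate 1 (same-numbered libraries taken as a pair) the level was 22.8-fold higher in GFP-HI, and within replicate 2 it was at least 241-fold higher against the floor of 3 counts in that library. The fitted log2 difference was 6.90, and its size depended on each library. It was 7.66 without GFP-HI replicate 1, 5.69 without GFP-HI replicate 2, 5.70 without GFP-NEG replicate 2 and 12.76 without GFP-NEG replicate 1, where the 1 GFP-NEG library left has 0 counts. In bulk libraries like these, fewer cells of a type and less RNA per cell cannot be told apart.

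The GFP-HI libraries differed from each other in IL13RA2 more than in most genes. The level in replicate 2 was 3.73-fold that in replicate 1, a log2 ratio of 1.85 on the log2(CPM + 1) scale, against a median absolute log2 ratio of 0.42 over all tested genes. A larger gap between these 2 libraries was found for 1.34% of tested genes. LGR5 itself was even between them, at 146 and 152 CPM, so that IL13RA2 reached 14.5 counts per 100 LGR5 counts in replicate 1 and 52.0 in replicate 2. In GFP-NEG, where LGR5 had only 10 and 7 counts, this ratio was 60.0 in replicate 1, above both GFP-HI libraries, and 0 in replicate 2. Relative to PDGFRA, a receptor of fibroblasts, IL13RA2 was at 2.58 and 14.1 counts per 100 in GFP-HI and at 0.958 and 0 in GFP-NEG. The GFP-NEG library with the 6 IL13RA2 counts was also the one with more fibroblast marker signal (24800 against 8980 CPM); the part of this signal in the IL13RA2 counts was not tested.

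**Figure D1:**
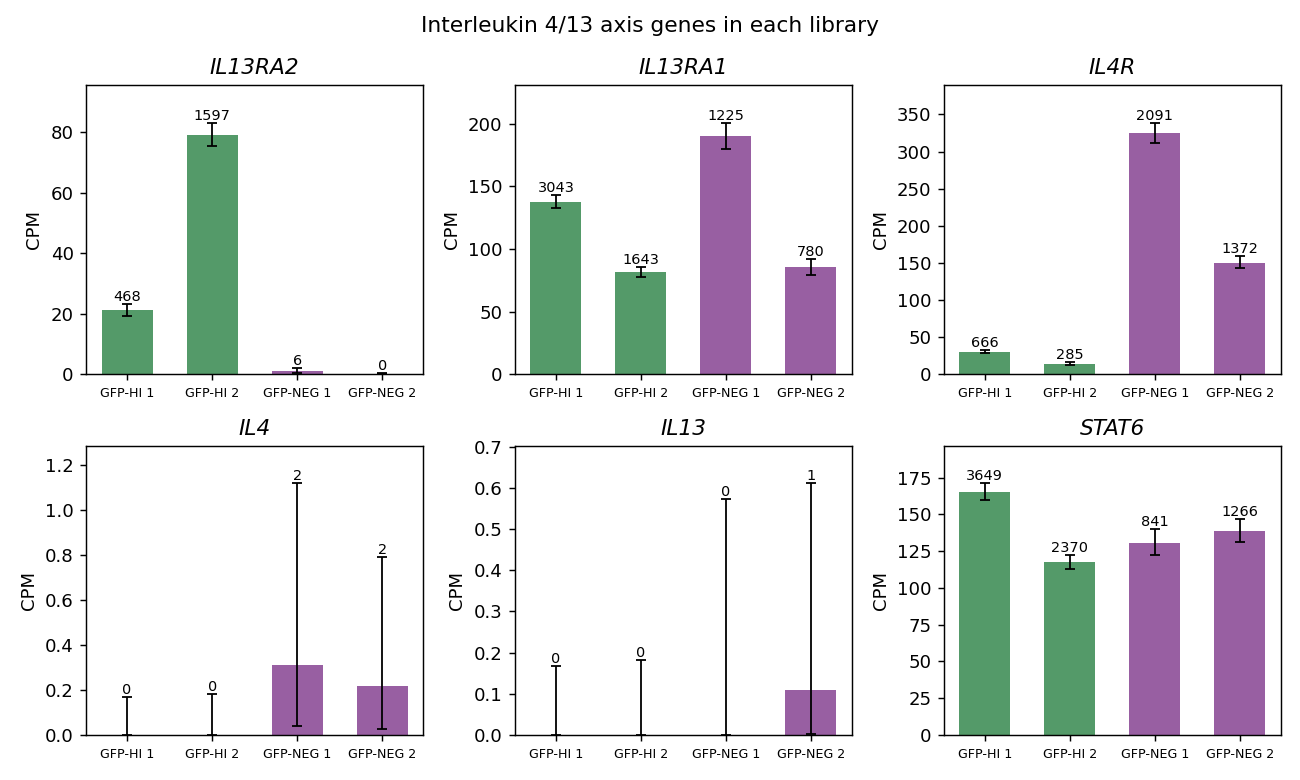
Level of each of the 6 genes in CPM (y axis, own scale per gene, starting at 0) in the 4 libraries (x axis); bars give the library's value, whiskers the exact binomial 95% interval for counting error, and the number above each bar the raw count. IL13RA2 is seen in GFP-HI (468 and 1597 counts) and hardly in GFP-NEG (6 and 0), IL4R shows the opposite order, and IL13RA1 and STAT6 overlap between fractions.

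IL13RA1, the signalling chain that binds interleukin 13, did not separate the fractions. Its counts were 3043 and 1643 in GFP-HI against 1225 and 780 in GFP-NEG, or 138 and 81.4 CPM against 190 and 85.5 CPM. Each fraction had its higher value in replicate 1, and the ranges overlapped. The fitted log2 difference was -0.33, and the level in GFP-NEG was 1.38 times that in GFP-HI within replicate 1 and 1.05 times within replicate 2. The sign turned when either GFP-NEG replicate 1 (0.41) or GFP-HI replicate 2 (0.06) was left out.

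Because both chains bind interleukin 13, their counts were also set against each other within a library, which needs no scaling between libraries. Gene lengths over exons were not used here, so the ratio is compared between libraries and not read as a ratio of molecules. IL13RA2 made up 13.3% of the summed IL13RA1 and IL13RA2 counts in GFP-HI replicate 1 (exact binomial 95% interval 12.2 to 14.5%, 3511 counts) and 49.3% in GFP-HI replicate 2 (47.6 to 51.0%, 3240 counts). In GFP-NEG the share was 0.487% in replicate 1 (0.179 to 1.06%, 1231 counts) and 0 of 780 counts in replicate 2, which allows a share of up to 0.385% by the floor of 3 counts. The decoy chain thus held a larger part of the pair in both GFP-HI libraries than in either GFP-NEG library, with a wide gap between the GFP-HI libraries.

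IL4R, the chain common to both signalling receptors, had the opposite order. It had 666 and 285 counts in GFP-HI against 2091 and 1372 in GFP-NEG, in libraries of less depth, or 30.2 and 14.1 CPM against 325 and 150 CPM. Both GFP-HI values lay below both GFP-NEG values. Within replicate 1 the level was 10.8-fold higher in GFP-NEG and within replicate 2 it was 10.6-fold higher, although replicate 2 was lower than replicate 1 in each fraction. The fitted log2 difference of -3.42 stayed between -3.96 and -2.71 when single libraries were left out, with -2.71 without GFP-NEG replicate 1.

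IL4R moved apart from its partner chain. There were 0.219 and 0.173 IL4R counts per IL13RA1 count in GFP-HI, whereas GFP-NEG had 1.71 and 1.76, so the ratio was close between replicates of a fraction and differed between the fractions. Set against PTPRC, the ratio followed the replicate and not the fraction. In replicate 1 there were 65.7 IL4R counts per 100 PTPRC counts in GFP-HI and 47.3 in GFP-NEG, and in replicate 2 there were 11.7 and 12.4. PTPRC itself was 15.0-fold higher in GFP-NEG within replicate 1 and 10.0-fold higher within replicate 2. The part of leukocyte RNA in the IL4R values was not tested.

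**Figure D2:**
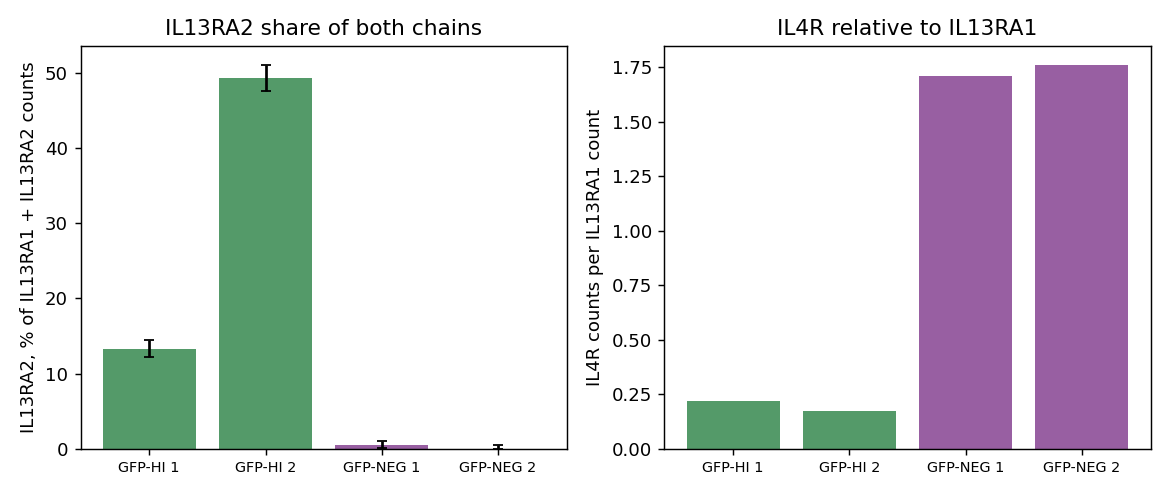
Left, IL13RA2 as a percentage of the summed IL13RA1 and IL13RA2 counts with exact binomial 95% intervals; right, IL4R counts per IL13RA1 count; both by library (x axis, 2 GFP-HI and 2 GFP-NEG). The IL13RA2 share is 13.3% and 49.3% in GFP-HI and 0.487% or less in GFP-NEG, while IL4R per IL13RA1 is 0.219 and 0.173 in GFP-HI against 1.71 and 1.76 in GFP-NEG.

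STAT6, the transcription factor downstream of both receptors, was at similar levels in all libraries. Its counts were 3649 and 2370 in GFP-HI against 841 and 1266 in GFP-NEG, or 165 and 117 CPM against 131 and 139 CPM. The GFP-NEG values lay between the GFP-HI values. The log2 difference was 0.07 and turned negative under upper-quartile scaling (-0.26), with the library total alone (-0.35) and when GFP-HI was thinned to the GFP-NEG depth (-0.08), so no direction is given.

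The cytokines themselves were at the limit of detection. IL4 had 0 counts in both GFP-HI libraries and 2 counts in each GFP-NEG library (0.311 CPM, exact binomial 95% interval 0.0376 to 1.12, and 0.219 CPM, 0.0266 to 0.792). IL13 had 0 counts in 3 libraries and 1 count in GFP-NEG replicate 2 (0.110 CPM, 0.00278 to 0.611). A count of 0 allows up to 0.136 and 0.149 CPM in the GFP-HI libraries. Every IL4 and IL13 count was under the floor of 3 counts, so no fold is given and a difference between fractions was not detectable at this depth. Neither gene passed the filter on low counts. In the RefSeq table for assembly Sscrofa11.1 the span of KIF3A contains both IL13 and IL4, and since a strand setting is not given in the sources used here, even these few counts are uncertain in origin.

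**Figure D3:**
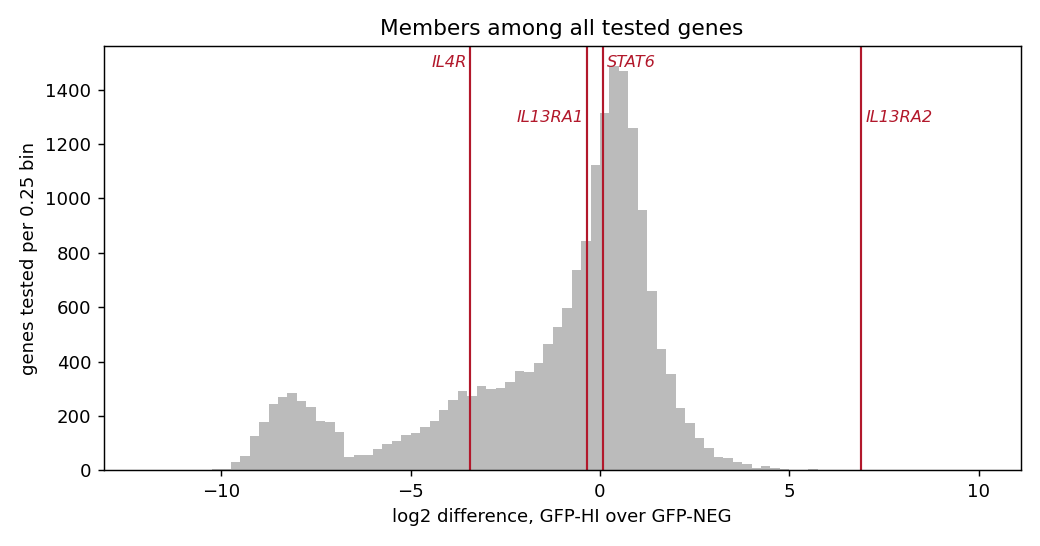
Histogram of the log2 difference between GFP-HI and GFP-NEG (x axis, bins of 0.25) over all 19682 tested genes (y axis, genes per bin), with red lines at the 4 members that passed the filter on low counts. IL13RA2 (6.90) lies at the far right edge, IL4R (-3.42) in the left shoulder, and IL13RA1 (-0.33) and STAT6 (0.07) near the middle; of the 2051 genes below -7, 1984 have 0 counts in both GFP-HI libraries.

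Of the 4 members past the filter, IL13RA2 had its fractions apart with GFP-HI higher, IL4R had them apart with GFP-HI lower, and IL13RA1 and STAT6 overlapped. Among all tested genes the fractions did not overlap in 27.7% with GFP-HI higher and in 42.0% with GFP-HI lower, 69.7% together. The median log2 difference was -0.13 over these 4 genes and -0.25 over all tested genes. Of the tested genes, 2078 had 0 counts in both GFP-HI libraries and 2 had 0 counts in both GFP-NEG libraries. Over all genes counted, 18752 and 18392 were detected in GFP-HI against 24120 and 25985 in GFP-NEG, in libraries of less depth. The source of this excess in GFP-NEG was not tested. The excess limits the reading of lower genes with few counts, such as CCL17 and SPDEF, and of the share called lower over all tested genes.

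The authors' deposited table of the comparison holds a log2 fold change of -0.33 for IL13RA1, -3.43 for IL4R and 0.06 for STAT6. IL13RA2, IL4 and IL13 are not among its 16250 genes, so the values for these 3 genes rest on the counts of the single libraries.

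The rest of the pathway was covered by 8 lists with 72 genes, of which 62 were in the files and 54 passed the filter. By edgeR's quasi-likelihood test, with the Benjamini-Hochberg adjustment over all tested genes and a threshold of 0.05, 5 of the 54 were higher in GFP-HI and 27 were lower, or 9.26% and 50.0%, and 59.3% in either direction. Over all tested genes 8.35% were called higher and 27.6% lower, 36.0% together. The median log2 difference of the 54 genes was -1.44. Without 1 library, between 0 and 5 of these genes were called higher and between 17 and 20 lower; the smallest counts of both came without GFP-NEG replicate 2. Lists with 0 higher genes described below included receptor partners and kinases, type 2 cytokines with receptors and lineage factors, related receptors and decoys. In these lists 0 genes were also higher at an unadjusted p under 0.05 (edgeR) and 0 under DESeq2.

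Among receptor partners and kinases, 3 of 5 genes fell and 0 rose. IL2RG, the common gamma chain, had 786 and 1516 counts in GFP-HI against 2924 and 3967 in GFP-NEG, or 35.6 and 75.2 CPM against 454 and 435 CPM. It fell by 3.00 on the log2 scale (SE 0.69, adjusted p of 0.00015, edgeR). JAK3, the kinase bound to the common gamma chain, had 244 and 185 counts in GFP-HI and, in the shallower GFP-NEG libraries, 835 and 1461. It fell by 3.84 (SE 0.60, adjusted p of 1.4e-08), and was 11.7-fold and 17.5-fold higher in GFP-NEG within replicates 1 and 2. Both genes were lower in GFP-HI within each replicate, as PTPRC was, and the part of leukocyte RNA in this was not tested. JAK1, the kinase bound to IL4R, was at 336 and 282 CPM in GFP-HI against 262 and 327 CPM in GFP-NEG (log2 difference 0.07, adjusted p of 0.95), and its sign turned under 4 alternatives. TYK2, a kinase bound to IL13RA1, had a log2 difference of -0.79 (adjusted p of 0.33). JAK2 fell by 1.38 (adjusted p of 0.026), but the call was lost when any 1 of the 4 libraries was left out (adjusted p of 0.057 to 0.47).

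IRS1 was the 1 gene of the adaptors and negative regulators that rose. This adaptor, which links IL4R as well as the insulin receptors to the phosphoinositide 3-kinase pathway, was at 135 and 71.4 CPM in GFP-HI against 23.3 and 10.4 CPM in GFP-NEG. Its log2 difference was 2.62 (SE 0.55, adjusted p of 4.2e-05, edgeR), with 2.49 in replicate 1 and 2.66 in replicate 2, and it was 3.36 without GFP-NEG replicate 1 and 2.11 without GFP-NEG replicate 2 (adjusted p of 0.0013 and 0.076). The related adaptor IRS2 was even, with 514 and 455 counts in GFP-HI against 149 and 228 in GFP-NEG and a log2 difference of -0.07 (adjusted p of 0.94). PTPN6, a phosphatase of blood cells, fell by 3.92 (adjusted p of 3.4e-06; log2 difference -3.30 without GFP-HI replicate 1), and PTPN11, its widely expressed relative, had a log2 difference of 0.47 (adjusted p of 0.52). CISH, a cytokine-induced feedback inhibitor, fell by 1.64 (adjusted p of 0.0076), a call lost without GFP-HI replicate 1 (0.061), GFP-HI replicate 2 (0.18) or GFP-NEG replicate 1 (0.20). Of 7 tested genes in this list 1 rose, 2 fell and 4 did not pass.

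Genes known to respond to interleukins 4 and 13 changed in both directions, with 3 of 19 tested genes higher and 8 lower. The 3 higher genes were POSTN, TNC and TGM2, named after their values were seen. POSTN, which encodes periostin, was at 421 and 578 CPM in GFP-HI against 143 and 18.1 CPM in GFP-NEG, a log2 difference of 2.64 (SE 0.70, adjusted p of 0.00087, edgeR). TNC, which encodes tenascin C, rose by 2.80 (adjusted p of 0.0095), from 495 and 63.8 CPM to 2349 and 1544 CPM. TGM2, a transglutaminase that crosslinks proteins, rose by 3.03 (adjusted p of 0.010), from 632 and 59.3 CPM to 3383 and 2262 CPM. GFP-NEG replicate 1 was the higher GFP-NEG library for all 3 genes, as it was for the summed fibroblast markers. Without that library the log2 differences were 4.84, 4.98 and 5.62, and without GFP-NEG replicate 2 they were 1.77, 1.94 and 2.12 with adjusted p-values of 0.30, 0.35 and 0.31. The calls of TNC and TGM2 were also lost without GFP-HI replicate 1 (adjusted p of 0.056 and 0.052), and those of POSTN, TNC and TGM2 without GFP-HI replicate 2 (0.061, 0.051 and 0.053).

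Of the 8 lower response genes, the 4 with the largest differences were SPDEF, SERPINB2, CCL17 and F13A1. F13A1, a coagulation factor chain made by macrophages, fell by 3.81 (SE 0.60, adjusted p of 2.5e-08, edgeR), from 108 and 205 CPM in GFP-NEG to 7.93 and 14.4 CPM in GFP-HI. CCL17, a chemokine that attracts T helper 2 cells, had 34 and 62 counts in GFP-NEG and 6 and 3 in GFP-HI and fell by 4.78 (adjusted p of 0.00083). SERPINB2, a protease inhibitor of macrophages and epithelium, fell by 4.79 (adjusted p of 4.9e-05). Its log2 difference was -6.49 without GFP-HI replicate 1, -3.98 without GFP-HI replicate 2, -5.49 without GFP-NEG replicate 2 and -3.53 without GFP-NEG replicate 1, where the call was lost (0.074). SPDEF, a transcription factor of mucous cells, had 7 and 30 counts in GFP-NEG and 2 and 6 in GFP-HI and fell by 3.46 (adjusted p of 0.030). The SPDEF call was lost in every fit without 1 library (0.10 to 0.61, log2 differences of -4.34 to -2.49), under DESeq2 (0.070), without the filter on low counts (0.089) and with the replicate block (0.11). ARG1 and VCAM1, an arginine-degrading enzyme and an adhesion molecule, had log2 differences of 0.21 and 0.26 (adjusted p of 0.84 and 0.75), and the sign of both changed with the scaling. Over the whole list the median log2 difference was -1.11.

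CHI3L1, a chitinase-like protein reported to bind IL13RA2, differed widely between the GFP-HI libraries. It was at 272 CPM in GFP-HI replicate 1 and 1936 CPM in GFP-HI replicate 2, against 524 and 250 CPM in GFP-NEG. The values of replicate 1 and replicate 2 thus had opposite orders between fractions, with log2 differences of -0.94 and 2.95. The fitted value of 1.51 did not pass (SE 0.81, adjusted p of 0.14, edgeR), and it was -0.44 without GFP-HI replicate 2 and 2.44 without GFP-HI replicate 1 (adjusted p of 0.76 and 0.045). TGFB1, which encodes transforming growth factor beta 1 and has been placed downstream of IL13RA2, had 244 and 246 counts in GFP-HI, 158 and 577 in GFP-NEG, and fell by 1.92 on the scaled values (adjusted p of 0.0021). That call was lost without GFP-HI replicate 1 (0.092), GFP-HI replicate 2 (0.073) or GFP-NEG replicate 2 (0.43).

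Type 2 alarmins, cytokines, their receptors and lineage factors had 3 of 6 tested genes lower in GFP-HI and 0 higher. GATA3, the factor that specifies T helper 2 and innate lymphoid cells, was at 1.18 and 2.83 CPM in GFP-HI against 30.1 and 72.5 CPM in GFP-NEG and fell by 4.68 (SE 0.62, adjusted p of 4.4e-11, edgeR). Its log2 difference was -4.01 without GFP-HI replicate 1, -5.31 without GFP-HI replicate 2 and -3.95 without GFP-NEG replicate 2. IL1RL1, the receptor for the alarmin interleukin 33, fell by 2.36 (adjusted p of 0.00017), from 46.1 and 47.8 CPM to 9.15 and 9.07 CPM. IL9R, the interleukin 9 receptor, fell by 4.02 (adjusted p of 0.0023, and 0.064 without GFP-NEG replicate 2). IL17RB, a chain of the interleukin 25 receptor, had a log2 difference of 1.02 (adjusted p of 0.17), and RORA, a nuclear receptor of innate lymphoid cells and many other cells, of -0.19 (adjusted p of 0.81). IL5, which lies in the same gene cluster as IL4 and IL13, had 5 and 3 counts in GFP-HI against 0 and 18 in GFP-NEG and was not tested, and IL9 was at 0 in all 4 libraries.

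Class I cytokine receptors related to the members fell in 5 of 5 tested genes, with a median log2 difference of -3.95. IL2RB, the interleukin 2 receptor beta chain, fell by 4.17 (SE 0.59, adjusted p of 3.7e-10, edgeR), from 58.8 and 162 CPM in GFP-NEG to 4.80 and 7.44 CPM in GFP-HI. The interleukin 21 receptor gene IL21R fell by 3.95, CSF2RB, the beta chain shared by the receptors for interleukins 3 and 5, fell by 3.63, and IL2RA fell by 4.15, with adjusted p-values of 4.2e-05 or less. Without GFP-NEG replicate 2 the log2 difference was -3.30 for IL2RB and -3.10 for IL2RA, whose adjusted p was then 0.051. IL7R, named after its values were seen because it completes the 5, fell by 3.46 (adjusted p of 1e-06), with -2.43 without GFP-HI replicate 1, -5.58 without GFP-HI replicate 2 and -2.33 without GFP-NEG replicate 2. These genes are expressed mainly by blood cells, and the T cell and PTPRC values given above fell with them; that part was not tested.

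Other decoy receptors and antagonists were lower in GFP-HI in 4 of 7 tested genes and higher in 0 of 7. IL1R2, the decoy receptor for interleukin 1, was at 7.25 and 8.48 CPM in GFP-HI against 190 and 37.1 CPM in GFP-NEG and fell by 3.85 (SE 0.58, adjusted p of 5.5e-09, edgeR). The IL1R2 log2 difference was -2.18 without GFP-NEG replicate 1 (adjusted p of 0.010) and -4.63 without GFP-NEG replicate 2. The scavenging chemokine receptors ACKR2 and ACKR1 fell by 2.42 and 2.10 (adjusted p of 0.0037 and 0.0036), and SIGIRR, an inhibitory relative of the interleukin 1 receptor, fell by 2.30 (adjusted p of 0.00033). ACKR1 rested on GFP-NEG replicate 1, without which the log2 difference was -0.56 (adjusted p of 0.68), while it was -2.87 without GFP-NEG replicate 2, and its call was also lost without GFP-HI replicate 1 (0.15) or GFP-HI replicate 2 (0.050). ACKR2 was at 0.085 without GFP-HI replicate 2 and SIGIRR at 0.055 without GFP-NEG replicate 2. IL18BP, a soluble interleukin 18 antagonist, and ACKR3 had log2 differences of -0.87 and -0.63 (adjusted p of 0.23 and 0.36).

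Of 3 genes that neighbour IL4 and IL13, 1 rose and 1 fell. RAD50, a DNA repair gene, was at 116 and 102 CPM in GFP-HI against 74.2 and 63.8 CPM in GFP-NEG (log2 difference 0.66, adjusted p of 0.36, edgeR). KIF3A, a kinesin of cilia, was at 61.4 and 127 CPM against 37.1 and 16.3 CPM and rose by 1.82 (adjusted p of 0.0030), a call lost without GFP-HI replicate 2 (0.16) or GFP-NEG replicate 2 (0.37), and had a log2 difference of 2.58 without GFP-NEG replicate 1. IRF1, an interferon-induced factor, fell by 1.83 (adjusted p of 0.018), a call lost without GFP-NEG replicate 1 (0.16), GFP-HI replicate 2 (0.32) or GFP-NEG replicate 2 (0.057), and had a log2 difference of -2.51 without GFP-HI replicate 1.

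**Figure D4:**
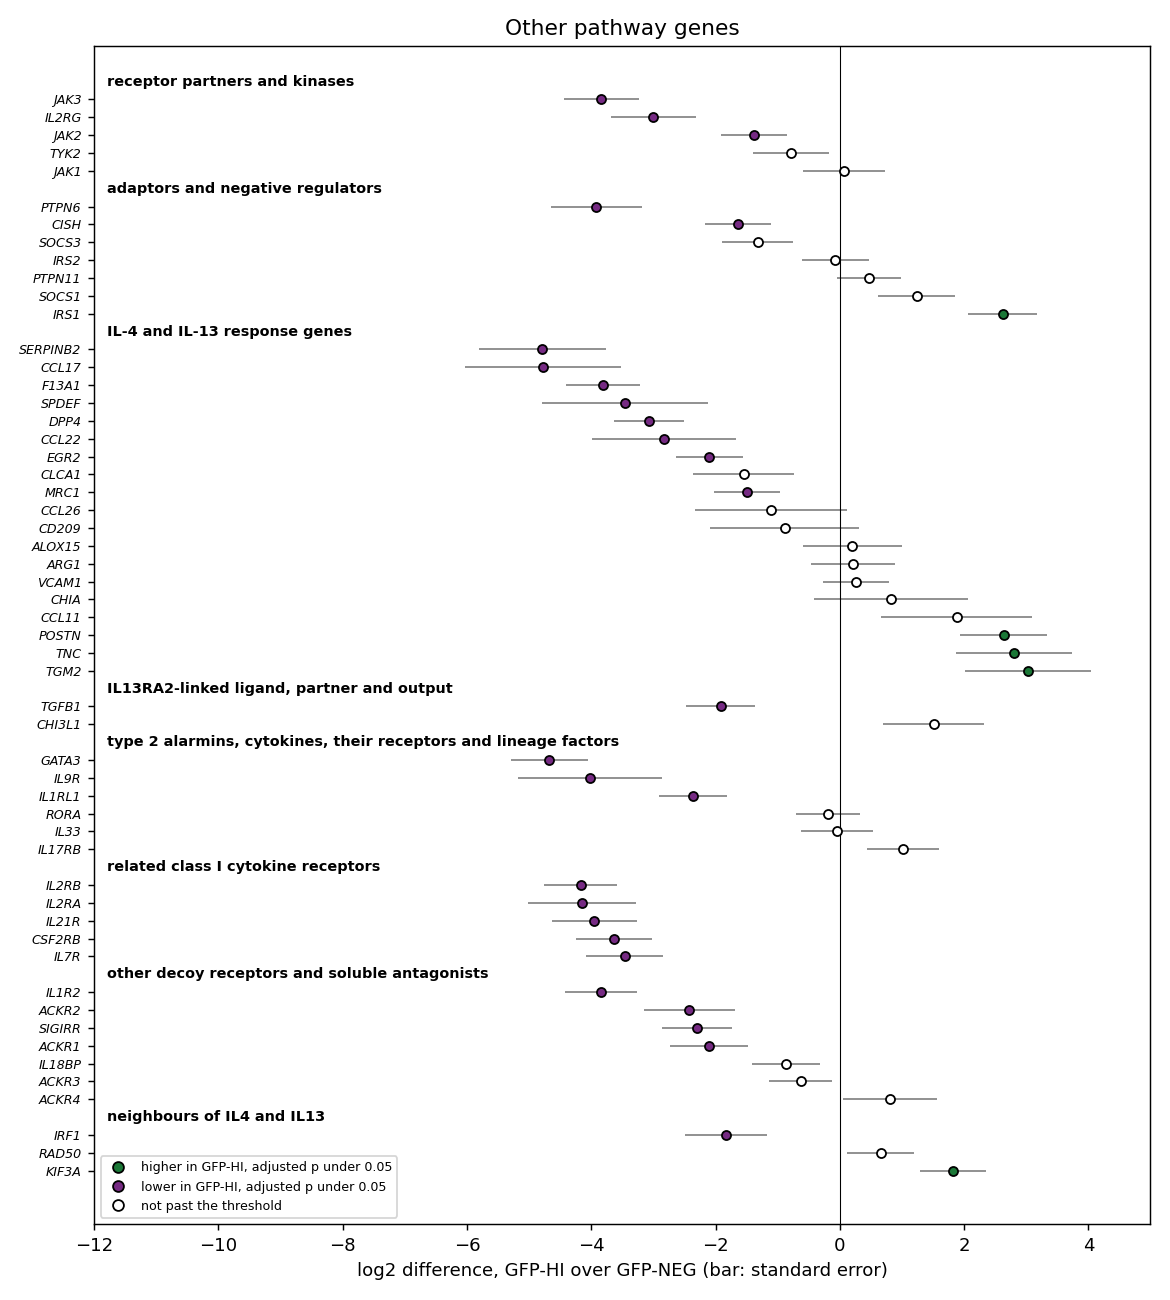
Log2 difference between GFP-HI and GFP-NEG (x axis; bars, standard error from edgeR) for the 54 tested pathway genes in 8 lists (y axis); green marks genes higher in GFP-HI, purple lower, and open symbols genes not past an adjusted p of 0.05. IRS1, POSTN, TNC, TGM2 and KIF3A are the 5 higher genes, and all 5 related class I receptors lie between -4.17 and -3.46.

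The genes whose profile over the 4 libraries came closest to that of IL13RA2 were SOSTDC1, SFRP1, BMP4, PTN, LUM and NREP. Likeness was the Euclidean distance between log2(CPM + 1) values after each gene's mean was taken away, over tested genes with a symbol, and the distances ran from 0.87 (SOSTDC1) to 1.17 (NREP). SOSTDC1, a secreted antagonist of bone morphogenetic proteins and Wnt, was at 162 and 497 CPM in GFP-HI against 18.6 and 3.40 CPM in GFP-NEG. SFRP1, a secreted Wnt antagonist, was at 177 and 370 CPM against 17.4 and 9.21 CPM. The order of the libraries in these 6 genes follows from how they were chosen. Their log2 ratio between the GFP-HI libraries ran from 0.97 to 1.61, below the 1.85 of IL13RA2. With Pearson's r in place of distance, 0 of these 6 were among the nearest 6, so the names depend on the measure, and 4 libraries give little to rank them by.

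**Figure D5:**
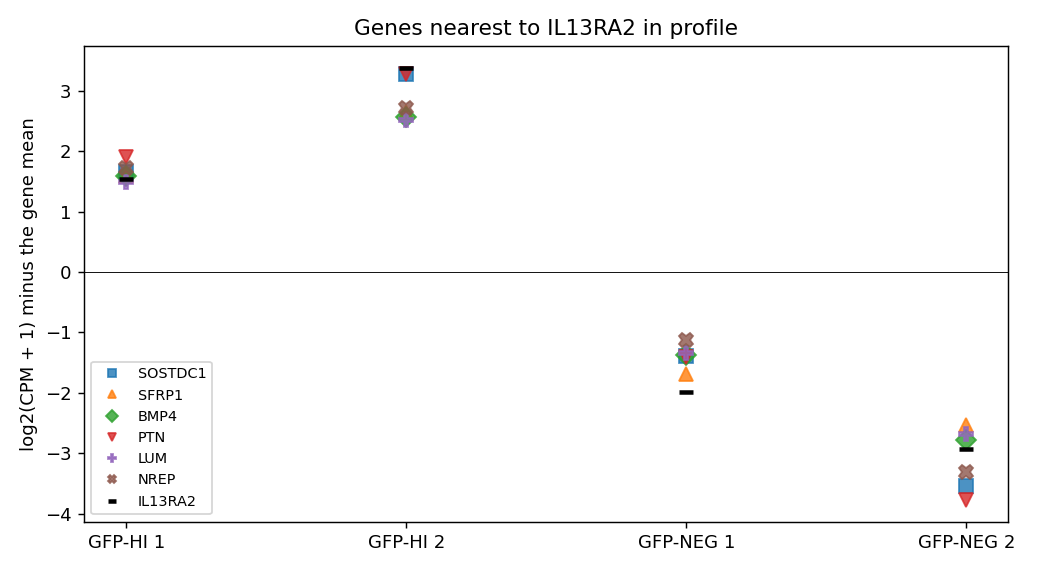
Log2(CPM + 1) minus the gene's own mean (y axis) in the 4 libraries (x axis) for IL13RA2 (black bars) and the 6 nearest genes (coloured symbols, 1 per gene). The 6 genes were chosen for small distances over these 4 values (0.87 to 1.17), so they follow IL13RA2 by choice.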

How the data were processed

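The 2 GFP-HI and 2 GFP-NEG RNA libraries were made with the Nextera XT kit, per the labels' protocols. The authors deposited raw counts per gene and a comparison table with a log2 fold change, per the file headers. The submitters' processing notes name featureCounts, Subread 1.5.2 and DESeq2 1.37.6; aligner and strand setting are not given in the sources used here, and a build only through the number of assembly Sscrofa11.1 in the name of the deposited table. In that table, 4 columns of per-sample values were not used. Symbols replaced 834 Ensembl identifiers.

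Counts were scaled to CPM and tested with edgeR 4.0.16 (R 4.3.3; TMM, filterByExpr, quasi-likelihood test, group as the only term, Benjamini-Hochberg, threshold 0.05). The procedure was tested on simulated data with shifts drawn evenly in both directions and the same dispersion for all genes. That test does not cover the excess of lower over higher genes in these data. Fits without 1 library assume that a lone sample varies like the other group. Other scalings, filters, DESeq2 1.42.0, thinned counts and a replicate block were alternatives. Headings of those 4 unused columns name pig 1 and pig 2 in both fractions. Whether replicate 1 is pig 1 is not stated and those headings were not checked against their values, so taking same-numbered libraries as pairs is an assumption; their deviations from group means correlated at 0.190 across genes.

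Members and lists were chosen with earlier results of these data known. Genes to be named were the members, LGR5 and the 6 nearest to IL13RA2. Each pathway list added up to 4 called genes with the largest difference and separate groups, and up to 2 uncalled genes of highest level. Each marker list added the 2 of highest level. Of these marker genes, PTPRC, GATA2, FCER1A, EPX and IL5RA are given singly, and those of the other marker lists only within sums. FCER2, CCL11, IL5, IL9 and PDGFRA were named after their values were seen.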

Additional observations from a re-analysis of the deposited data

How the results depend on the processing

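IL13RA2 and IL4R kept their direction in all 11 alternatives run for them, and IL13RA1 and STAT6 did not. Without single libraries the log2 difference ranged from 5.69 to 12.76 for IL13RA2 (the highest against a lone GFP-NEG library at 0 counts), from -0.83 to 0.41 for IL13RA1, and from -0.05 to 0.39 for STAT6. STAT6 was at -0.26, JAK1 at -0.27 and ARG1 at -0.11 under upper-quartile scaling. With the library total alone these were -0.35, -0.37 and -0.25, and VCAM1 was at -0.08. With GFP-HI thinned to the GFP-NEG depth they were -0.08, -0.09 and -0.09. Without single libraries, JAK1 ranged from -0.03 to 0.29, IRS2 from -0.07 to 0.05, ARG1 from -0.89 to 0.99, VCAM1 from -0.42 to 1.50, CHI3L1 from -0.44 to 2.44, RORA from -0.44 to 0.21 and ACKR3 from -1.45 to 0.37. The cause of these turns was not tested.

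Over all genes, 1643 were higher and 5433 lower. Higher genes numbered 1083 under upper-quartile scaling and 888 with the library total alone, where the median log2 difference of all genes was -0.58 and -0.68 against -0.25. With at least 10 counts in 2 libraries 951 were higher and 3182 lower among 17690 tested, and after thinning 3591 were lower. Without single libraries, 216 to 1635 were higher and 1575 to 4999 lower, and 0 to 5 pathway genes were higher and 17 to 20 lower. The replicate block kept the number of higher pathway genes at 5, turned ARG1 to -0.04 and ended the call of SPDEF (adjusted p of 0.11, edgeR), and it changed no other call of a named pathway gene. TGM2 was at an adjusted p of 0.052 and JAK2 at 0.060 under the stricter filter (edgeR). Without a filter JAK2 was at 0.051. Under DESeq2, 7 fibroblast markers were higher against 4, and 1 macrophage marker was lower against 3. The nearest genes by Pearson's r shared 0 of 6 names. The protein alignment was not run, since no protein sequences were used here. IL4 and IL13 are limited by depth: 1 count in GFP-NEG is worth 0.110 to 0.155 CPM. For the 4 axis genes that passed the filter, an alternative was counted as moved when it shifted the log2 difference by more than the pooled SD of log2(CPM + 1) within the fractions. This yardstick was chosen after results had been seen, in place of the SD of the differences within replicates, which was so small for IL4R that each of its alternatives would have counted as moved.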

Other observations

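IL13RA2 ranks high among the genes that the authors' deposited table leaves out. Of 13013 such genes it has the 2nd highest total, with 2071 counts over the 4 libraries, against a median total of 12 and a highest total of 2369. Only 4 of these genes reach 1000 counts, and IL13RA2 is the one of them with a symbol. Of the 16250 genes in the table, 10618 have a lower total than IL13RA2, and 372 have 0 counts in at least 1 library, as IL13RA2 does. By its third-highest count over the 4 libraries, which is 6, IL13RA2 resembles the genes left out. Of those genes 12841 have a third-highest count of 6 or less, against 633 of the genes in the table. The rule behind the omission was not tested. The gene is therefore seen in the single-library counts and not in the table of the whole comparison.

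Some genes of the type 2 axis were too low to test or were not found. TSLP, CRLF2, TMEM219, IL3RA, CSF2RA and CCL24 were not found by symbol among the genes counted. The low-affinity immunoglobulin E receptor gene FCER2, a classic interleukin 4 response gene of B cells, had 0 and 7 counts in GFP-HI against 4 and 83 in GFP-NEG and did not pass the filter. The eotaxin gene CCL11, which fibroblasts express, had 63 and 78 counts in GFP-HI against 3 and 12 in GFP-NEG, with a log2 difference of 1.88 that did not pass (SE 1.21, adjusted p of 0.23, edgeR).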
